A study of Mus musculus with 18 samples.

Results

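The comparison described here sets livers of mouse pups at post-natal day 7 (P7) against livers at P5, all from pups that had received a miR-497a-5p mimic. It covers 6 of the 18 libraries of the study, 3 at P7 and 3 at P5, assigned to it by their labels. The comparison itself was picked with earlier results of these data known, and these groups lack the P7 scrambled libraries that hold background or muscle reads. All pups were C57BL/6J. The mimic, a synthetic RNA that stands in for the microRNA, was injected into the peritoneum on day 1, the day of birth, and again on day 3, so both groups carried the same treatment and differed by age and by the time since the last injection. Doses printed in the labels are 100 and 10 mg per kg, with no word on which of them a given library had. Beside the mimic livers, 3 livers at P7 and 3 at P5 from pups given a scrambled control mimic on the same days are used for comparison. Newborns were shared out among nursing dams. The sources used here do not say which livers of a group had a dam or litter in common, so the p-values measure the spread between these livers. Liver RNA was sequenced as stranded mRNA libraries and the values are scaled counts, gene counts that the authors had divided by a size factor for each library and rounded.

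In the first days after birth the mouse liver hands blood formation over to the bone marrow and spleen, and its hepatocytes take up the work of the adult organ: making bile acids, clearing drugs and hormones through P450 and conjugation enzymes, detoxifying ammonia in the urea cycle and answering growth hormone. Hepatocytes still divide in this period. Members of the miR-15 and miR-497 family bind messages of cell cycle genes and of insulin signalling through their seed, the bases that pair first with a target.

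The mimic's sequence is shown because both groups had received it. Its mature sequence lies at chr11:70234730-70234751 on the plus strand of GRCm38.p6 (RefSeq), printed 5′ to 3′ with the seed, bases 2 to 8, in capitals.
mmu-miR-497a-5p: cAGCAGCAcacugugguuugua
The same seed is carried by miR-15a-5p, miR-15b-5p, miR-16-5p, miR-195a-5p and miR-322-5p. The mature microRNA itself was not measured in these mRNA libraries.

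The 6 mimic libraries held totals of 4025727 to 4222005 scaled counts. From the spacing of the low values, 1 read was worth 0.785 to 1.154 scaled counts, which puts the depth at an estimated 3532600 to 5319600 counted reads per library. The libraries read as liver: Alb, the gene of serum albumin, had 1826, 2219 and 1672 scaled counts in P7 mimic livers and 2099, 1899 and 2328 in P5 mimic livers, and the marker genes of muscle, pancreas, gut and fat summed to 355 to 464 at P7 and 442 to 480 at P5. In scrambled livers the same markers summed to 2179, 409 and 910 at P7 and 401 to 514 at P5. The sums of P7 scrambled replicates 1 and 3 lay above those of any mimic library. In genes chosen as silent over all libraries but P7 scrambled replicates 2 and 3, replicate 3 held 3.08 scaled counts per kb. P7 scrambled replicate 1 held 0.0198 there, a value in part set by that choice. How much of the marker sum of replicate 3 was such background and how much was other tissue was not tested. Both bear on each scrambled value below. Of the 213 genes with more than 0.5 reads per base of transcript, Alb among them, 0.939% passed the threshold, against 10.2% of the other genes, so a missing call in these genes is not read as a lack of change. Markers of sex differed between libraries: the Y-linked gene Ddx3y had 817, 762 and 0 scaled counts at P7 and 0, 644 and 60 at P5. The X-inactivation RNA Xist had 2, 17 and 1953 scaled counts at P7 and 1414, 0 and 1568 at P5, so that the third P5 library held both. The median SD of log2 values within a group was 0.140 at P7 and 0.136 at P5.

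Between P7 and P5 the mimic livers differed in 1416 of the 14104 genes tested (10.0%) at an adjusted p under 0.05, by limma with Benjamini-Hochberg adjustment. Of these, 941 (6.67%) were higher at P7 and 475 (3.37%) lower. The median log2 difference was 0.588 for the higher genes and -0.520 for the lower ones, 144 of the higher and 64 of the lower differed by more than 2-fold, and the median over all genes was -0.03. The 3 P7 values all lay above the 3 P5 values in 2731 genes (19.4%) and all below in 2657 (18.8%), and 4294 genes (30.4%) had an unadjusted p under 0.05. A gene list is read against these shares, 6.67% higher and 3.37% lower.

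How many genes passed depended on single libraries. Without P7 mimic replicate 1 the count was 40 and without P5 mimic replicate 3 it was 35. It was 174 without P7 replicate 3, 250 without P5 replicate 1, 1581 without P5 replicate 2 and 2044 without P7 replicate 2. All 1416 genes kept the sign of their difference in all 6 of these fits, 151 passed in at least 4 of them and 30 passed in all 6. Some of the 30 are described with their groups below. Others, named after their values were seen, were Epas1 (a hypoxia-inducible factor, log2 difference 0.53), Dpp4 (a peptidase, 0.60), Abat (of GABA breakdown, 0.77) and Dhtkd1 (of lysine breakdown, 1.22). Abat had 1568, 1412 and 1507 scaled counts at P7 and 889, 926 and 824 at P5, with a narrow spread in both groups. Beside the genes described in full below, the number of these 6 fits in which a gene passed is given. Of the called genes named without that number, Cd79b, F9, Psmd1, Slco1b2 and Sox17 passed in 0 of the 6. Acaca, Aco1, Blvra, Bst2, Cdh1, Col14a1, Cpt1a, Creld2, Cyp2d9, Cyp3a13, Elovl6, Gatm, Gins4, Ireb2, Rdh9, Rxra, Saa2, Sdf2l1, Srebf2, Stat5a and Steap4 passed in 1, and the rest in 2 or more. The erythroid level varied between these livers as well. The mean log2 level of the erythroid markers was 8.10, 8.50 and 8.38 in P7 mimic livers and 8.73, 8.51 and 9.03 in P5 mimic livers. Replicate 2 of P7 and replicate 2 of P5 were nearly equal, and the summed scaled counts of these markers overlapped between the groups. With the mean log2 level as a covariate, 1 gene, Rdh16, passed, and 2883 genes against 4294 had an unadjusted p under 0.05. All 1416 genes kept their sign in that fit.

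The P7 and P5 mimic libraries differed by transcript length too. The rank correlation of a gene's deviation from its mean with its transcript length was 0.485, 0.0534 and 0.459 in the P7 mimic libraries and -0.307, -0.0207 and -0.21 in the P5 mimic libraries. The mimic groups did not overlap (exact permutation test, two-sided p = 0.1, the smallest that 3 against 3 allows). The scrambled groups overlapped, with 0.144, 0.433 and 0.211 at P7 and 0.197, -0.352 and -0.267 at P5. At P14 the correlation was -0.241, -0.00893 and -0.199 in mimic and -0.111, -0.0872 and 0.0162 in scrambled libraries, so it did not rise steadily with age. Whether the trend stems from age or from library preparation was not tested. With the genes in 5 classes by length, 486 of the 2819 with the longest transcripts, 5180 bases and more, were called higher and 15 lower, while of the 2821 with the shortest, up to 1874 bases, 32 were higher and 221 lower. The median log2 difference was 0.219 in the longest and -0.237 in the shortest class in mimic livers, and 0.206 in the longest and -0.202 in the shortest class in scrambled livers. With the length trend removed within each library, 936 genes passed, 610 higher and 326 lower, and 726 of them were among the 1416, which is 51.3% of the reported calls and 77.6% of the 936. For this reason the count with the trend removed is given beside the gene lists. The median length is given below for some of the lists that stand far from the 3293 bases of all tested genes. Others stood apart too, such as the proteasome (1819 bases), heme (2113), unfolded protein (2175) and stellate and matrix (4722) lists.

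**Figure D1:**
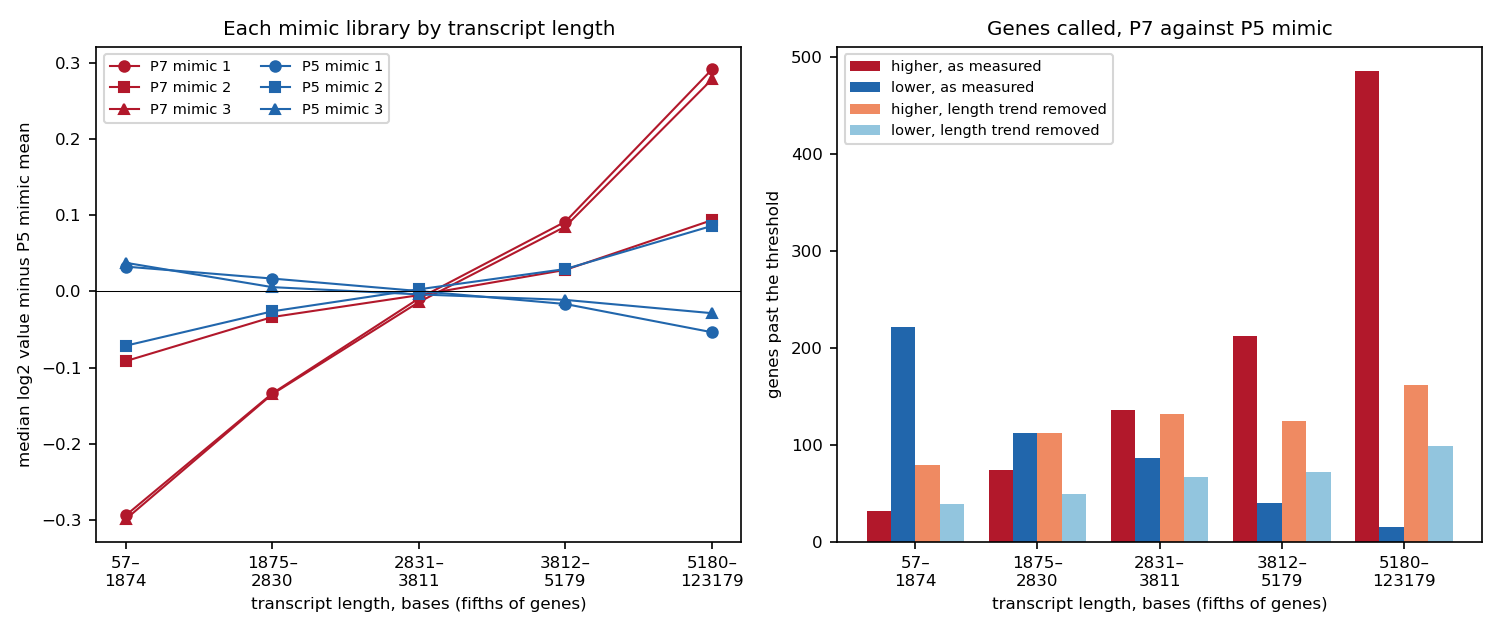
Left, the median log2 value of each mimic library minus the mean of the P5 mimic livers (vertical axis) in 5 classes of genes by transcript length in bases (horizontal axis). Right, the number of genes called higher or lower at P7 in each class, as measured and with the length trend removed. P7 replicates 1 and 3 lie at 0.291 and 0.278 in the longest class, while P7 replicate 2 and P5 replicate 2 lie at 0.0933 and 0.0858, and the calls are spread more evenly over the classes once the trend is removed.

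The gene with the smallest p was Rdh16 (ENSMUSG00000069456, chr10:127801154-127815839, plus strand, mm10), which encodes a retinol dehydrogenase of the hepatocyte's endoplasmic reticulum. Rdh16 had 371, 265 and 304 scaled counts in P7 mimic livers, against 109, 102 and 61 in P5 mimic livers (log2 difference 1.81, SE 0.16, adjusted p = 2.17e-05). This log2 difference is a 3.50-fold difference on the fitted scale, and the lowest P7 liver lay far above the highest P5 liver. The gene passed in 6 of the 6 fits and in all 23 alternatives. Sult2a5 had 119, 126 and 140 scaled counts in P7 mimic livers, against 21, 36 and 13 in P5 mimic livers (log2 difference 2.52, SE 0.35, adjusted p = 0.00289). This sulfotransferase of the hydroxysteroid and bile acid family passed in 6 of the 6 fits. H2-Q1 had 100, 70 and 142 scaled counts in P7 mimic livers, against 19, 20 and 7 in P5 mimic livers (log2 difference 2.75, SE 0.43, adjusted p = 0.00515, 6 of 6), so that this non-classical MHC class I gene also parted the groups without overlap. Reads of Sult2a5 and H2-Q1 may be shared with near-identical family members.

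Carriers of organic anions and bile acids were among the genes with large rises. Slco2b1, an organic anion uptake carrier, had 90, 76 and 140 scaled counts at P7 and 29, 46 and 27 at P5 (log2 difference 1.55, SE 0.25, adjusted p = 0.00519, 6 of 6). Slco1a4, another carrier of the family, had 415, 348 and 363 at P7 and 121, 153 and 53 at P5 (log2 difference 1.90, SE 0.43, adjusted p = 0.0158, 3 of 6). Slc10a5, a member of the bile acid carrier family, had 496, 307 and 405 at P7 and 98, 99 and 78 at P5 (log2 difference 2.10, SE 0.38, adjusted p = 0.00762, 4 of 6). In each of these 3 genes the lowest P7 liver lay above the highest P5 liver. The murinoglobulins Mug2 and Mug1, plasma protease inhibitors with similar sequences, had log2 differences of 2.93 and 1.68 (adjusted p = 0.0158 and 0.0291), and passed in 3 and 1 of the 6 fits. Lmbrd2, Rnf125 (a ubiquitin ligase), Ido2 (a tryptophan-degrading dioxygenase) and B3galt1 (a galactosyltransferase) followed with log2 differences of 2.19, 2.02, 1.89 and 1.63, and passed in 2, 4, 4 and 4 of the 6 fits.

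Among called genes with a mean of 100 or more and groups that did not overlap, the largest fall was that of Hamp (ENSMUSG00000050440, chr7:30942368-30944032, minus strand, mm10), the gene of hepcidin, the liver hormone that closes the cellular iron exporter. Hamp had 35, 98 and 27 scaled counts in P7 mimic livers, against 266, 159 and 280 in P5 mimic livers (log2 difference -2.30, SE 0.57, adjusted p = 0.0211). The P5 value nearest to P7 was that of P5 replicate 2 and the P7 value nearest to P5 was that of P7 replicate 2, and the gene passed in 2 of the 6 fits. It was lost without P7 replicate 1 or 3 and without P5 replicate 1 or 3, with log2 differences of -2.19 to -1.94 and adjusted p up to 0.114. Hamp had 247, 153 and 163 in P7 scrambled livers, against 185, 333 and 143 in P5 scrambled livers, where the groups overlapped (log2 difference -0.17), and 13, 23 and 7 scaled counts in P14 mimic livers. The near-copy Hamp2 had 7, 23 and 7 scaled counts at P7 and 18, 6 and 1 at P5. Id1, a target gene of the bone morphogenetic protein signal that also drives hepcidin, had 131, 152 and 135 at P7 and 304, 239 and 324 at P5 (log2 difference -1.04, SE 0.18, adjusted p = 0.00762, 4 of 6).

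The promoter window of Hamp is shown because Hamp had this fall and sites for its iron and cytokine signals are known in it. The window runs from 250 bases before to 50 bases after the start, chr7:30943980-30944279 on the minus strand of GRCm38.p6 (RefSeq). In capitals are GGCGCC, the core of a bone morphogenetic protein response element, and TTCTTGGAA, which has the pattern of a STAT3 site. Both were searched on both strands, and they do not overlap.
Hamp: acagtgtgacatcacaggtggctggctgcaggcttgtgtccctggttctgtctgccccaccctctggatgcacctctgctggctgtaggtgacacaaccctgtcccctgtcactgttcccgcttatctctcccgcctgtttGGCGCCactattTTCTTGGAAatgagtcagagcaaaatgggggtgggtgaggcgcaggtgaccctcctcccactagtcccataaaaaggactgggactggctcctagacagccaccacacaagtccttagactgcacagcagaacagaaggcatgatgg
Of all 32851 promoter windows in the table, 11.9% held GGCGCC, 0.417% held TTCTTGGAA and 7 windows held both. Of the genes around these signals, Stat3 and the interleukin 6 receptor gene Il6ra were higher at P7 (log2 difference 0.44 and 0.87, adjusted p = 0.0316 and 0.00906). Stat3 passed in 2 of the 6 fits and Il6ra in 4. With the length trend removed Il6ra passed and Stat3 did not. Bmp6, the ligand, had 13, 23 and 33 scaled counts at P7 and 29, 36 and 25 at P5 and did not pass (adjusted p = 0.371). Smad7, Tmprss6, Tfr2 and Slc40a1, the iron exporter gene, had log2 differences of 0.12, 0.12, 0.07 and 0.07 and did not pass either. Of 22 iron genes tested, Hamp and Id1 were lower, and Aco1 and Ireb2, the iron regulatory proteins, were higher (log2 difference 0.34 and 0.42), and with the length trend removed Hamp and Id1 passed.

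**Figure D2:**
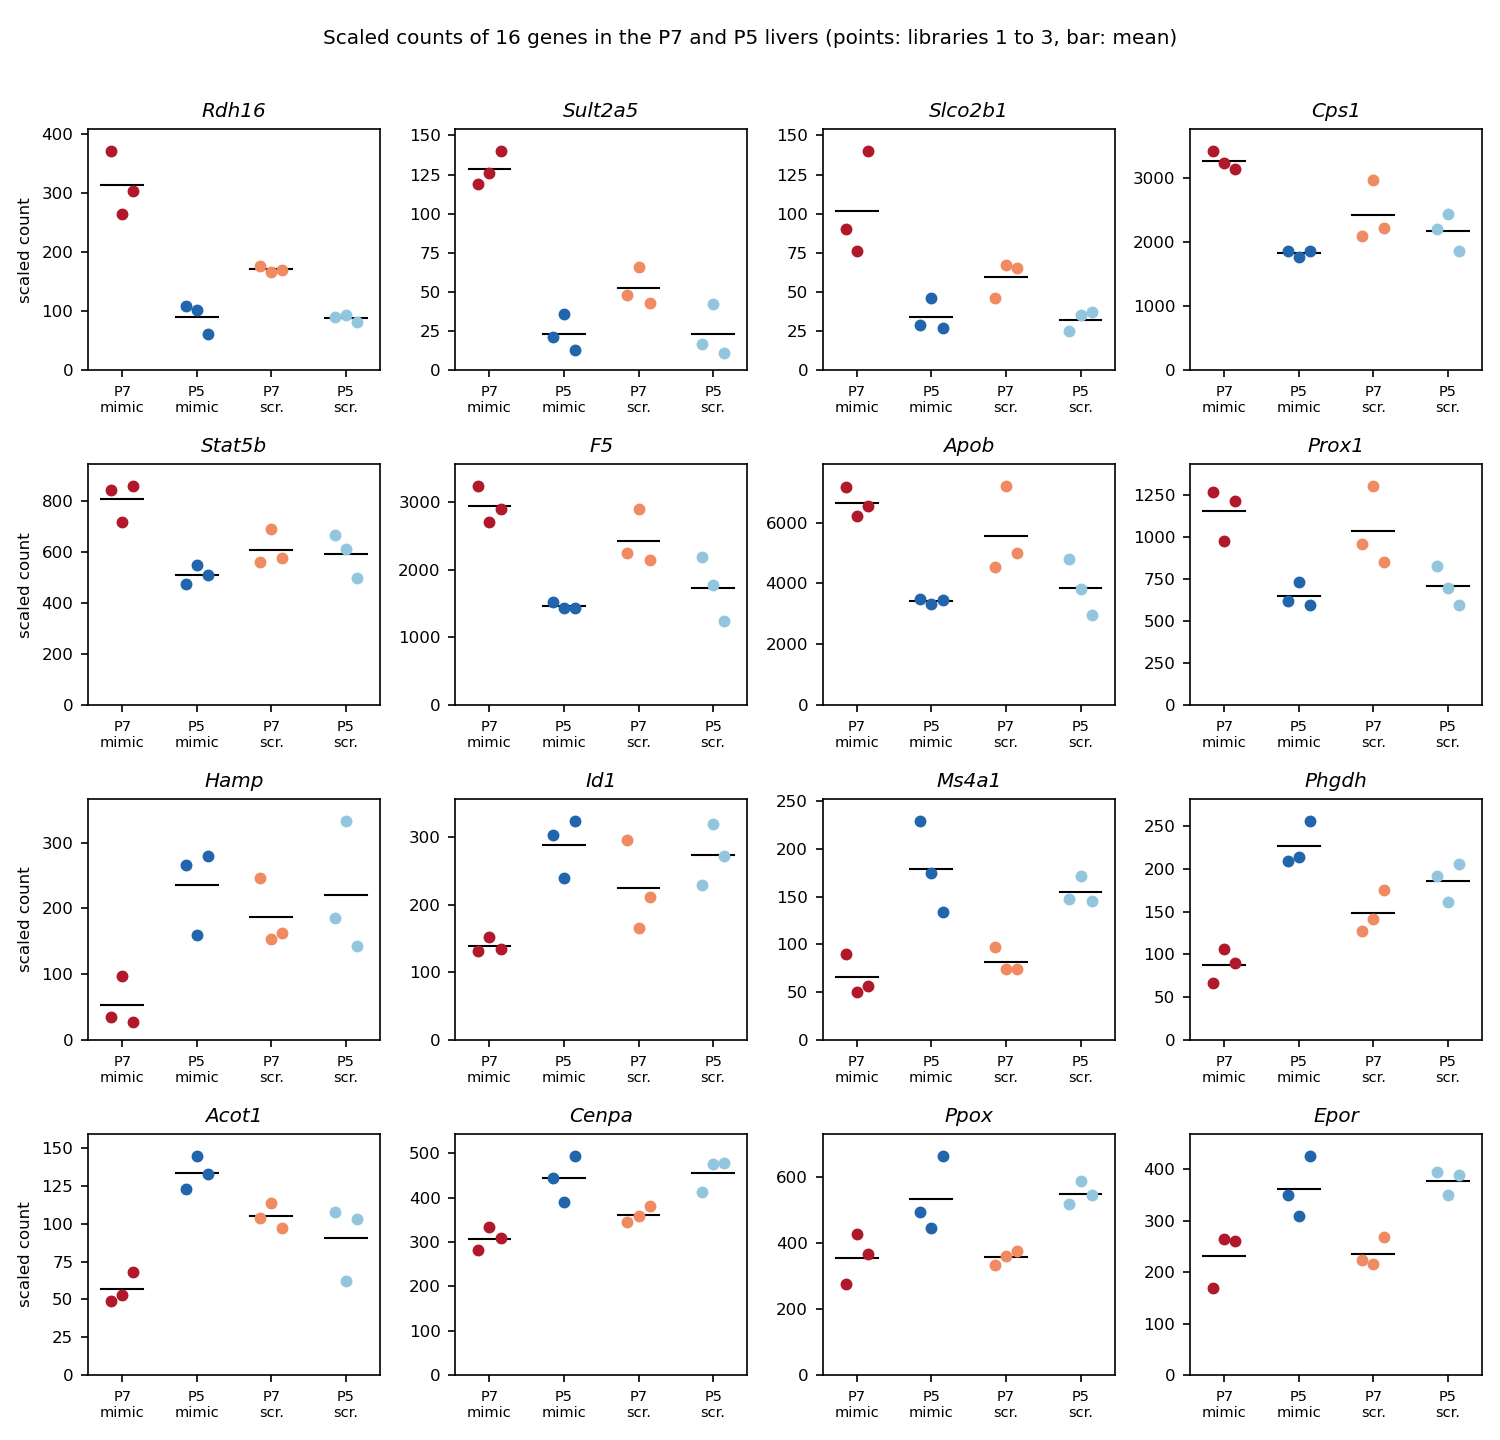
Scaled counts (vertical axis, from 0) of 16 genes in each library of the P7 and P5 mimic livers and of the P7 and P5 scrambled (scr.) livers, with points for replicates 1 to 3 and a bar at the mean. In Rdh16 the P7 mimic livers lie at 265 to 371 and the P5 mimic livers at 61 to 109, and in Hamp the P7 mimic livers lie at 27 to 98 and the P5 mimic livers at 159 to 280.

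Behind Hamp, the next falls under the same limits, a mean of 100 or more and no overlap, were in genes of several functions. Some called genes of lower level fell by more and are not described here. Igsf1, an immunoglobulin superfamily gene, had 74, 76 and 86 scaled counts at P7 and 225, 168 and 286 at P5 (log2 difference -1.48, SE 0.26, adjusted p = 0.00743, 4 of 6). Bex2 had 176, 177 and 176 at P7 and 343, 309 and 396 at P5 (log2 difference -0.97, SE 0.15, adjusted p = 0.0047, 6 of 6). Its 3 P7 livers stood within 1 scaled count of each other. Pcolce2, an enhancer of procollagen processing, had 140, 166 and 185 at P7 and 365, 320 and 350 at P5 (log2 difference -1.08, SE 0.20, adjusted p = 0.00762, 4 of 6). Gmpr, Sfrp1 (a secreted inhibitor of Wnt signals), Ly6a and Ocstamp followed with log2 differences of -1.05, -1.04, -1.05 and -0.96, and passed in 4, 2, 1 and 1 of the 6 fits.

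Several regulators of hepatocyte identity were higher at P7. Of 25 hepatocyte transcription factor genes, 7 were higher and 0 were lower, with a median log2 difference of 0.32, against -0.03 over all genes. With the length trend removed, 5 passed, all higher. Prox1 had 1266, 976 and 1211 scaled counts in P7 mimic livers, against 617, 730 and 596 in P5 mimic livers (log2 difference 0.83, SE 0.15, adjusted p = 0.00762, 4 of 6), a homeobox factor of the hepatocyte lineage. Zbtb20 had 483, 276 and 417 scaled counts in P7 mimic livers, against 163, 214 and 181 in P5 mimic livers (log2 difference 1.04, SE 0.19, adjusted p = 0.00769, 4 of 6), a zinc finger repressor of Afp after birth. Every P7 value of both genes lay above every P5 value. Ppara, the receptor that drives fatty acid oxidation, Nfix, Nr5a2, Hnf4a and Rxra had log2 differences of 0.99, 0.69, 0.54, 0.37 and 0.38. The last 2 did not pass with the trend removed (adjusted p = 0.068 and 0.12). In scrambled livers the list's median was 0.24. Afp, the fetal serum protein gene, had 1748, 2091 and 1608 scaled counts at P7 and 2072, 1874 and 2331 at P5 and did not pass (log2 difference -0.21, adjusted p = 0.381), and it is one of the very abundant messages.

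Among the genes of growth hormone and insulin-like growth factor signalling, 8 of 22 were higher and 0 lower, with a median of 0.35 in mimic livers and 0.04 in scrambled livers. Stat5b had 842, 718 and 859 scaled counts in P7 mimic livers, against 473, 548 and 510 in P5 mimic livers (log2 difference 0.66, SE 0.12, adjusted p = 0.00762, 4 of 6). Stat5b carries the growth hormone signal to the nucleus, and with the length trend removed its adjusted p was 0.00815. The growth hormone receptor gene Ghr had 1466, 1542 and 1379 scaled counts at P7 and 1054, 1143 and 968 at P5 (log2 difference 0.47, SE 0.11, adjusted p = 0.0158, 3 of 6). Igf1, the circulating growth factor, had 2514, 2606 and 2465 at P7 and 1750, 1823 and 1493 at P5 (log2 difference 0.59, SE 0.12, adjusted p = 0.0117, 4 of 6). The receptor and adaptor genes Prlr, Insr, Irs1, Irs2 and Stat5a were higher by 0.83, 0.61, 0.59, 0.80 and 0.55. The members have long transcripts, 4709.5 bases at the median. With the trend removed Stat5b and Ghr passed, while Igf1 and Prlr had adjusted p = 0.157 and 0.0981.

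Bile acid genes that were higher at P7 were mostly transporters. Of 27 tested, 9 were higher and 0 lower (median 0.33, scrambled livers 0.15). With the length trend removed 8 were higher, 6 of them among these 9. The 9 included the uptake carriers Slco2b1, Slco1a4 and Slco1b2 and the canalicular pumps Abcb11 for bile salts and Abcc2 for conjugates. The others were the sterol export pair Abcg5 and Abcg8 and the synthesis enzymes Akr1d1 and Acox2. Slco1b2, Abcb11 and Abcc2 did not pass with the length trend removed. Abcg5 had 725, 660 and 741 scaled counts in P7 mimic livers, against 481, 491 and 405 in P5 mimic livers (log2 difference 0.63, SE 0.12, adjusted p = 0.00908, 4 of 6), with no overlap. Abcg8, its partner in the same complex, had 1011, 884 and 958 at P7 and 614, 722 and 499 at P5 (log2 difference 0.65, SE 0.15, adjusted p = 0.0164, 2 of 6). Acox2, a side-chain enzyme, had 1002, 1005 and 905 at P7 and 752, 722 and 722 at P5 (log2 difference 0.41, SE 0.08, adjusted p = 0.0114, 4 of 6). Cyp7a1, the rate-limiting enzyme, had 540, 477 and 435 at P7 and 368, 398 and 255 at P5. Its groups did not overlap, yet it did not pass (log2 difference 0.53, adjusted p = 0.162). The sodium-dependent uptake carrier Slc10a1 had a log2 difference of -0.01 (adjusted p = 0.955).

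Of the P450 genes of families 1 to 4, 5 of 32 were higher and 1 was lower, and with the length trend removed 11 were higher and 0 lower. The list's median was 0.16 in mimic livers and 0.01 in scrambled livers. These transcripts are short, 1951 bases at the median. Cyp2c29 had 72, 101 and 41 scaled counts in P7 mimic livers, against 14, 13 and 7 in P5 mimic livers (log2 difference 2.51, SE 0.45, adjusted p = 0.00762, 4 of 6). Cyp4f14 had 451, 539 and 445 scaled counts in P7 mimic livers, against 230, 237 and 115 in P5 mimic livers (log2 difference 1.36, SE 0.36, adjusted p = 0.0261, 2 of 6). Cyp2c50, Cyp4v3 and Cyp3a13 were higher by 0.86, 0.49 and 0.49, and Cyp2d9 was lower (log2 difference -0.36). Cyp2c54, a neighbour of Cyp2c29 and Cyp2c50 with similar sequence, had 309, 288 and 238 scaled counts at P7 and 229, 161 and 70 at P5 and did not pass (adjusted p = 0.0627). Reads could be split between the Cyp2c genes. Of 28 conjugation enzymes, 6 were higher and 1 lower (median 0.27), and 7 were higher with the trend removed. Sult2a8 had 732, 784 and 636 at P7 and 476, 540 and 405 at P5 (log2 difference 0.60, SE 0.13, adjusted p = 0.0147, 3 of 6). Ugt1a9, which shares most of its exons with the other Ugt1a genes, had 111, 84 and 111 at P7 and 20, 24 and 21 at P5 (log2 difference 2.18, SE 0.56, adjusted p = 0.0254, 2 of 6). Tpmt and Ugt2b35 were higher by 0.36 and 0.50, and the lower gene was Gstt2.

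Part of the genes of nitrogen disposal were higher at P7 in mimic livers. Of 36 urea cycle and amino acid breakdown genes, 8 were higher and 0 lower, and 34 had a positive difference. With the length trend removed 14 were higher. Cps1 (ENSMUSG00000025991, chr1:67123026-67231259, plus strand, mm10), the mitochondrial enzyme that brings ammonia into the urea cycle, had 3418, 3225 and 3133 scaled counts at P7 and 1861, 1762 and 1864 at P5 (log2 difference 0.83, SE 0.14, adjusted p = 0.00656, 6 of 6). The lowest P7 liver lay far above the highest P5 liver. It had 2095, 2969 and 2219 in P7 scrambled livers, against 2205, 2435 and 1863 in P5 scrambled livers, which overlapped (log2 difference 0.15). Tdo2, which opens tryptophan breakdown, had 883, 1132 and 821 at P7 and 291, 474 and 205 at P5 (log2 difference 1.62, SE 0.35, adjusted p = 0.0141, 3 of 6). Hal and Uroc1, the first 2 enzymes of histidine breakdown, were higher by 0.84 and 0.41, Aass of lysine breakdown by 0.80, Gpt by 0.87, Gls2 by 0.66 and Kmo by 0.33. The other urea cycle genes Otc, Ass1, Asl and Arg1 had log2 differences of 0.19, 0.09, 0.09 and 0.13 and did not pass, and with the trend removed Arg1 passed (log2 difference 0.31, adjusted p = 0.0463). The list's median was 0.18 in mimic livers and -0.04 in scrambled livers. Gls2, Hal, Uroc1 and Cps1 are also periportal genes: of 17 of these 6 were higher, Pigr and Cdh1 among them, and Apoa4 was lower, while with the trend removed 7 were higher and 0 lower. Of 18 pericentral genes 2 were higher, Ahr by 0.62 and Notum by 0.73, and 4 with the trend removed. The pericentral median was 0.28 in mimic livers and 0.33 in scrambled livers.

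Genes of secreted proteins were called in both directions. Of 37 complement and coagulation genes, 5 were higher and 0 lower, with a median of 0.05. F5 had 3232, 2706 and 2890 scaled counts in P7 mimic livers, against 1521, 1426 and 1431 in P5 mimic livers (log2 difference 1.01, SE 0.17, adjusted p = 0.00643, 6 of 6), the coagulation factor V gene. Masp1, a serine protease of the lectin pathway, had 852, 771 and 818 at P7 and 317, 389 and 258 at P5 (log2 difference 1.36, SE 0.27, adjusted p = 0.0112, 4 of 6). C9, a part of the membrane attack complex, had 502, 485 and 545 at P7 and 266, 206 and 178 at P5 (log2 difference 1.25, SE 0.26, adjusted p = 0.0123, 3 of 6). These 3 and F9 passed with the length trend removed. Apob, the protein core of very low density lipoprotein, had 7174, 6221 and 6541 at P7 and 3496, 3310 and 3449 at P5 (log2 difference 0.96, SE 0.17, adjusted p = 0.00762, 4 of 6), with no overlap, and a log2 difference of 0.56 with the trend removed (adjusted p = 0.0271). Apoa4, another apolipoprotein, was lower (log2 difference -0.67, adjusted p = 0.0409), but not with the trend removed (adjusted p = 0.0916). The other 20 of 22 plasma protein genes did not pass, yet 21 of the 22 had a negative difference (median -0.15, scrambled livers -0.25). Their transcripts are short, 1491.5 bases at the median, and with the trend removed the list's median was 0.04. A missing call in the very abundant messages, Alb among them, is not read as a lack of change. Of 28 acute phase genes, 5 were higher: Il6ra, Il6st and Stat3 of the interleukin 6 signal, Steap4 and Saa2, which has near-copies. With the trend removed 3 of these passed, Il6ra, Steap4 and Saa2, while Il6st and Stat3 did not.

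Rdh16 was not the only retinoid gene that changed. Of 25 tested, 7 were higher and 1 lower (median 0.25), and with the length trend removed 4 were higher and 1 lower. The dehydrogenases Rdh9, Rdh10 and Adh4 were higher by 0.58, 0.46 and 0.82, and Lrat, which stores retinol as ester in stellate cells, by 0.65. Retsat, retinol saturase, was the lower gene, with 512, 532 and 509 scaled counts at P7 and 774, 661 and 662 at P5 (log2 difference -0.43, SE 0.10, adjusted p = 0.0179, 2 of 6). It had 817, 795 and 754 in P7 scrambled livers, against 699, 609 and 756 in P5 scrambled livers, and its change differed between mimic and scrambled livers by -0.63 (unadjusted p = 3.33e-04), a difference that did not pass adjustment (limma, adjusted p = 0.465).

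In lipid metabolism genes moved both ways. Srebf1, the factor that switches on fatty acid synthesis, had 1515, 1562 and 1502 scaled counts at P7 and 1060, 934 and 902 at P5 (log2 difference 0.66, SE 0.13, adjusted p = 0.0104, 4 of 6). Acly, Acaca and Gpam were higher as well (log2 difference 0.44, 0.34 and 1.12), but not with the length trend removed (adjusted p = 0.0596, 0.912 and 0.0618). Me1, malic enzyme, had 124, 126 and 127 at P7 and 213, 167 and 208 at P5 (log2 difference -0.63, SE 0.15, adjusted p = 0.0209, 2 of 6), and the elongase gene Elovl6 was lower too (log2 difference -0.87, adjusted p = 0.0476). Acot1, an acyl-CoA thioesterase with close copies, had 49, 53 and 68 at P7 and 123, 145 and 133 at P5 (log2 difference -1.23, SE 0.22, adjusted p = 0.00762, 4 of 6). Fgf21, the fasting hormone, had 14, 34 and 42 at P7 and 73, 97 and 102 at P5 (log2 difference -1.68, SE 0.47, adjusted p = 0.0342, 1 of 6), while Ppara, which is known to drive both genes, was higher. In Srebf1, Me1, Acot1 and Fgf21 the P7 and P5 livers did not overlap. Cpt1a, the gate of fatty acid entry into mitochondria, was higher by 0.32. Of 26 cholesterol genes, Srebf2 alone was higher (0.32, adjusted p = 0.0352), and Sqle, squalene epoxidase, had 578, 652 and 501 at P7 and 575, 519 and 584 at P5, which overlapped. Among 26 genes of glucose metabolism, Pklr, liver pyruvate kinase, was lower (log2 difference -0.35) and 25 did not pass. With the length trend removed, 1 of 27 lipogenesis genes was higher and 2 lower, against 4 higher and 2 lower as measured, and 2 of 32 fatty acid oxidation genes were higher and 1 lower, against 2 higher and 2 lower. In the cholesterol and glucose lists 0 then passed.

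Clock genes were higher at P7 in 6 of 20 cases (median 0.35, scrambled livers 0.16), and 4 passed with the length trend removed. The hour at which the livers were taken is not stated. Arntl, the partner of Clock, had 280, 259 and 312 scaled counts at P7 and 163, 197 and 195 at P5 (log2 difference 0.62, SE 0.17, adjusted p = 0.0285, 2 of 6). Per3, Cry2, Clock and Rora were higher by 1.15, 0.56, 0.63 and 0.68. Dbp and Nr1d1, output and repressor genes with strong daily rhythms, had log2 differences of 0.16 and -0.11 with SE 0.34 each and did not pass.

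The genes of serine synthesis were lower at P7. All 3 enzymes of the pathway passed: Phgdh, the first, had 67, 107 and 90 scaled counts at P7 and 209, 214 and 256 at P5 (log2 difference -1.37, SE 0.31, adjusted p = 0.0152, 3 of 6). Psat1, the next, had 327, 450 and 359 at P7 and 666, 594 and 699 at P5 (log2 difference -0.79, SE 0.19, adjusted p = 0.0188, 2 of 6). Psph had 126, 163 and 126 at P7 and 216, 176 and 209 at P5 (log2 difference -0.54, SE 0.17, adjusted p = 0.0473, 2 of 6). In each of them the highest P7 liver lay below the lowest P5 liver. With the length trend removed Phgdh and Psat1 passed (adjusted p = 0.0271 and 0.0307) and Psph did not (adjusted p = 0.0635). They stand in a list of 27 genes of the unfolded protein and amino acid stress response, of which 6 were lower and 0 higher (median -0.29, scrambled livers -0.18). The others of the 6 were Fgf21 and the chaperone genes Sdf2l1 and Creld2. With the length trend removed, 2 of the 27 were lower, Phgdh and Psat1, and Fgf21, Sdf2l1 and Creld2 did not pass. As measured, Atf4, the factor of the amino acid response, and its target Asns did not pass (log2 difference -0.29 and -0.33, adjusted p = 0.104 and 0.247).

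A block of mitosis genes was lower at P7. Of 39 tested, 12 were lower and 0 higher (median -0.35, scrambled livers -0.19), and 37 had a negative difference. With the length trend removed 8 were lower. Cenpa, the histone variant of the centromere, had 282, 333 and 308 scaled counts at P7 and 445, 391 and 494 at P5 (log2 difference -0.52, SE 0.12, adjusted p = 0.0149, 2 of 6). Mad2l1 had 328, 342 and 341 scaled counts in P7 mimic livers, against 468, 404 and 509 in P5 mimic livers (log2 difference -0.44, SE 0.10, adjusted p = 0.0139, 2 of 6), a spindle checkpoint gene. Ccnb1, cyclin B1, had 209, 260 and 241 at P7 and 352, 300 and 383 at P5 (log2 difference -0.54, SE 0.14, adjusted p = 0.0218, 2 of 6). In these 3 genes P5 replicate 2 was the lowest of the P5 livers and still lay above every P7 liver. Cdk1, the mitotic kinase, Birc5 and Cdca8 of the chromosomal passenger complex, Bub3 and Nusap1 were lower by log2 differences of -0.45, -0.50, -0.57, -0.37 and -0.38, and so were Ccna2, Ccnb2, Cdc20 and Ube2c (-0.44, -0.41, -0.53 and -0.51), which did not pass with the trend removed. All 12 passed in 2 of the 6 fits, apart from Cdc20, which passed in 1. The proliferation markers Mki67 and Top2a, with long transcripts, had log2 differences of 0.06 each and did not pass. In bulk liver, fewer dividing cells and less of these RNAs per cell cannot be told apart. Red cell precursors divide too, and the erythroid markers summed to 20930 to 26863 scaled counts at P7 and 24674 to 34437 at P5. Their part in the mitosis genes was not tested apart from the covariate fit above.

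Promoter windows of 2 of these genes are shown because the list shares promoter elements that the choice of its members did not use. In capitals are CCAAT, the box that the factor NF-Y binds, and TTTGAA, the cell cycle homology element, both searched on both strands, so that ATTGG and TTCAAA count as well. Windows run 5′ to 3′ from 250 bases before to 50 after the start (GRCm38.p6, RefSeq), Cenpa at chr5:30666636-30666935 on the plus strand and Cdk1 at chr10:69352863-69353162 on the minus strand.
Cenpa: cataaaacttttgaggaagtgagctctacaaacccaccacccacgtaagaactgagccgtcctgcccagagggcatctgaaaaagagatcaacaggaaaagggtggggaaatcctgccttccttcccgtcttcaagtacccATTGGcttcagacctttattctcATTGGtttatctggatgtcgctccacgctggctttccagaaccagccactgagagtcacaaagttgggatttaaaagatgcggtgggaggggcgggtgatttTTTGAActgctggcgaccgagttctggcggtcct
Cdk1: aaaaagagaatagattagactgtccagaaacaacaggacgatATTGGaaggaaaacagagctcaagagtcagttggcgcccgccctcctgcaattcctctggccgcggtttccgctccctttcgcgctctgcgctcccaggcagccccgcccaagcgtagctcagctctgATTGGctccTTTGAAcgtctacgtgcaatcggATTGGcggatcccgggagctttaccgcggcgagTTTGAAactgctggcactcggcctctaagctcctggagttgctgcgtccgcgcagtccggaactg
CCAAT was found in 24 of the 33 mitosis genes with a window (72.7%), TTTGAA in 24 (72.7%) and both in 21 (63.6%). Over all 32851 windows the shares were 37.4%, 17.9% and 6.95%, and over the first windows of the 10675 tested genes that had one they were 38.8%, 12.2% and 5.04%. Of the 11 lower members with a window, 7 held both (63.6%), the same share as in the list. A match is a stretch of letters and no measure of binding.

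Of 42 DNA replication genes, 5 were lower and 0 higher, with a median of -0.29 in mimic and -0.32 in scrambled livers. Rfc5, a subunit of the clamp loader, had 244, 270 and 254 scaled counts at P7 and 367, 319 and 351 at P5 (log2 difference -0.43, SE 0.11, adjusted p = 0.0218, 2 of 6). Tyms, thymidylate synthase, was lower as well (log2 difference -0.47), and these 2 passed with the length trend removed, while Orc6, Rfc4 and Gins4 did not. Mcm2, of the replicative helicase, did not pass (log2 difference -0.13). Among 30 genes of the G1 phase, Rbl2 and E2f3 were higher (0.60 and 0.49) and the inhibitor gene Cdkn2d was lower (-0.57). With the trend removed Rbl2 and E2f3 passed and Cdkn2d did not.

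Some genes of heme synthesis and breakdown were lower at P7. Of 16 heme genes, 6 were lower and 0 higher (median -0.30, scrambled livers -0.33). Ppox had 275, 426 and 366 scaled counts in P7 mimic livers, against 492, 446 and 663 in P5 mimic livers (log2 difference -0.59, SE 0.15, adjusted p = 0.0227, 2 of 6). Ppox, a late enzyme of heme synthesis, was the 1 member that passed with the length trend removed. It had 332, 361 and 376 in P7 scrambled livers, against 518, 586 and 544 in P5 scrambled livers, also without overlap, as were 7.74% of all genes in the higher and 9.69% in the lower direction there. Urod, Uros, Slc25a38, Blvra and Blvrb were the other 5, with log2 differences from -0.50 to -0.32. Alas2, the red cell's own first enzyme, had 950, 1180 and 985 at P7 and 1245, 1126 and 1453 at P5, and the liver's Alas1 had 623, 584 and 634 at P7 and 555, 544 and 461 at P5, and neither passed (log2 difference -0.29 and 0.24). Of 33 erythroid genes, 32 had a negative difference (median -0.33, scrambled livers -0.43) but 2 passed, the erythropoietin receptor gene Epor and the adhesion gene Icam4. Epor had 170, 265 and 260 scaled counts in P7 mimic livers, against 350, 310 and 426 in P5 mimic livers (log2 difference -0.66, SE 0.18, adjusted p = 0.0308, 2 of 6). Neither passed with the trend removed, when 1 other member, Xpo7, was lower. Kel, a red cell membrane gene, had 334, 476 and 454 at P7 and 632, 542 and 869 at P5 (log2 difference -0.68, adjusted p = 0.116).

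Of 20 B cell genes tested, 3 were lower and 0 higher, while 13 had a negative and 7 a positive difference. In 9 of them all P7 values lay below all P5 values, and in 1 they all lay above. The markers together summed to 2003 to 2485 scaled counts at P7 and 2558 to 3509 at P5. Ms4a1, the gene of CD20, had 90, 50 and 57 scaled counts at P7 and 229, 175 and 134 at P5 (log2 difference -1.45, SE 0.26, adjusted p = 0.00762, 6 of 6), and it had 97, 74 and 74 in P7 scrambled livers, against 147, 171 and 145 in P5 scrambled livers. Igkc and Cd79b were the others, with log2 differences of -0.93 and -0.79, and did not pass with the length trend removed. The lambda chain genes Iglc1 and Iglc3, named after their values were seen, passed as lower in all 6 fits (log2 difference -1.64 and -1.55). The list's median was -0.24 in mimic livers and -0.74 in scrambled livers. The neutrophil markers summed to 6931 to 8127 scaled counts at P7 and 8296 to 9816 at P5, also without overlap. Neutrophil transcripts are short, 1359.5 bases at the median, and the neutrophil list's median moved from -0.24 to -0.04 with the length trend removed. Of 21 T and natural killer cell genes 1 was lower, Gzma (log2 difference -0.80, 3 of 6), with a median of -0.05 in mimic livers and 0.22 in scrambled livers. Of 26 neutrophil genes 1 was lower, Prtn3 (log2 difference -0.77, 2 of 6), a share near that of all genes. Neither passed with the length trend removed (adjusted p = 0.0544 and 0.111). Of 19 blood progenitor genes Lyl1 and Cd34 were lower (log2 difference -0.79 and -0.68, 2 and 1 of 6), also with the trend removed. Of 20 platelet and 27 Kupffer cell genes, 0 passed. Cd9 and Mrc1 came nearest (adjusted p = 0.0929 and 0.0546).

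Among cells of the liver's frame, 4 of 37 stellate cell and matrix genes were higher and 2 of 31 endothelial genes lower. Reln, a glycoprotein made by stellate cells in liver, had 2300, 1794 and 2108 scaled counts at P7 and 1069, 1130 and 934 at P5 (log2 difference 0.98, SE 0.16, adjusted p = 0.00643, 5 of 6), and it passed with the length trend removed. The stellate and matrix markers summed to 27530 to 31850 scaled counts at P7 and 22402 to 27942 at P5. Fn1, Col14a1 and Lrat did not then pass (adjusted p = 0.203, 0.0894 and 0.112). Cd34 and Sox17 were the lower endothelial genes, and Cd34 passed with the trend removed. Muc1 of bile duct cells had 24, 8 and 17 at P7 and 60, 45 and 69 at P5 (log2 difference -1.87, SE 0.49, adjusted p = 0.0264, 1 of 6). Upk3b, a mesothelial gene, had 97, 30 and 67 at P7 and 1, 4 and 0 at P5 (log2 difference 4.78, SE 1.24, adjusted p = 0.0256, 2 of 6), while the mesothelial markers together summed to 374 to 673 at P7 and 443 to 556 at P5. The pancreatic elastase gene Cela2a had 22, 17 and 10 at P7 and 6, 4 and 0 at P5, and the muscle gene Ttn had at most 2 scaled counts in any of the 6 libraries. The part of surface or neighbouring tissue in Upk3b and Cela2a was not tested.

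Of 27 oncofetal genes, Igf2bp1 and Lin28b were lower. Igf2bp1, which binds fetal messages such as Igf2, had 11, 13 and 17 scaled counts at P7 and 46, 37 and 74 at P5 (log2 difference -1.82, SE 0.45, adjusted p = 0.0215, 2 of 6). Lin28b, which blocks let-7 microRNAs, had 10, 13 and 9 at P7 and 30, 42 and 50 at P5 (log2 difference -1.82, SE 0.51, adjusted p = 0.0341, 1 of 6), and 3, 0 and 1 in P14 mimic livers. In both genes the groups stood apart at counts that are low for these libraries. Zfp568 was higher (0.55) but not with the length trend removed, when 0 oncofetal genes were higher and 3 lower. Of 20 imprinted growth genes 1 passed, Gatm (log2 difference -0.26, adjusted p = 0.0495), which did not pass with the trend removed, when 1 other member was lower. Dlk1 had 318, 316 and 290 at P7 and 347, 498 and 452 at P5 (adjusted p = 0.175). H19 and Igf2, which are among the very abundant messages, had log2 differences of -0.17 and 0.0020.

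For the messages of the injected microRNA's family, 3 of 37 known targets were higher and 1, Arl2, lower, with a median of 0.08 in mimic and 0.05 in scrambled livers. Pdcd4 had 494, 495 and 493 scaled counts at P7 and 354, 400 and 353 at P5 (log2 difference 0.42, SE 0.11, adjusted p = 0.0266, 2 of 6), and E2f3 and Insr were the other higher genes. Of the targets, Pdcd4 and E2f3 passed with the length trend removed. The targets Ccne1, Chek1, Wee1, Cdc25a, Ccnd1 and Bcl2 had log2 differences of -0.48, -0.14, -0.02, -0.16, 0.21 and -0.17 and did not pass. Of 26 genes of the microRNA machinery, Ago1, Ago3, Cnot1 and Xpo5 were higher (0.58, 0.43, 0.77 and 0.56) and Lin28b lower. This list has long transcripts, 6069 bases at the median, and with the trend removed Ago1, Cnot1 and Lin28b passed.

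In the lists of cell machinery few genes passed. Of 40 ribosomal protein genes, all had a negative difference (median -0.27, scrambled livers -0.31) and 1, Rpl13a, was lower by the test. Of 39 oxidative phosphorylation genes 37 had a negative difference (median -0.21) and 0 passed. Both lists have short transcripts, 1107 and 1363 bases at the median, and with the length trend removed their medians were -0.05 and 0.02. In the proteasome and lysosome lists 1 gene each was higher, Psmd1 and Npc1. Of these, Psmd1 passed with the trend removed. Of 22 antigen presentation genes 0 passed, of 40 interferon genes Ifi35 and Bst2 were lower, and of 25 Nrf2 target genes Gclc was higher and Me1 lower. Jund and Ier3 were the lower ones of 20 heat shock and immediate early genes. With the trend removed 0 of the interferon, ribosomal and heat shock genes passed, Gclc and Me1 did, and 1 oxidative phosphorylation gene and 1 other lysosome gene were higher.

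**Figure D3:**
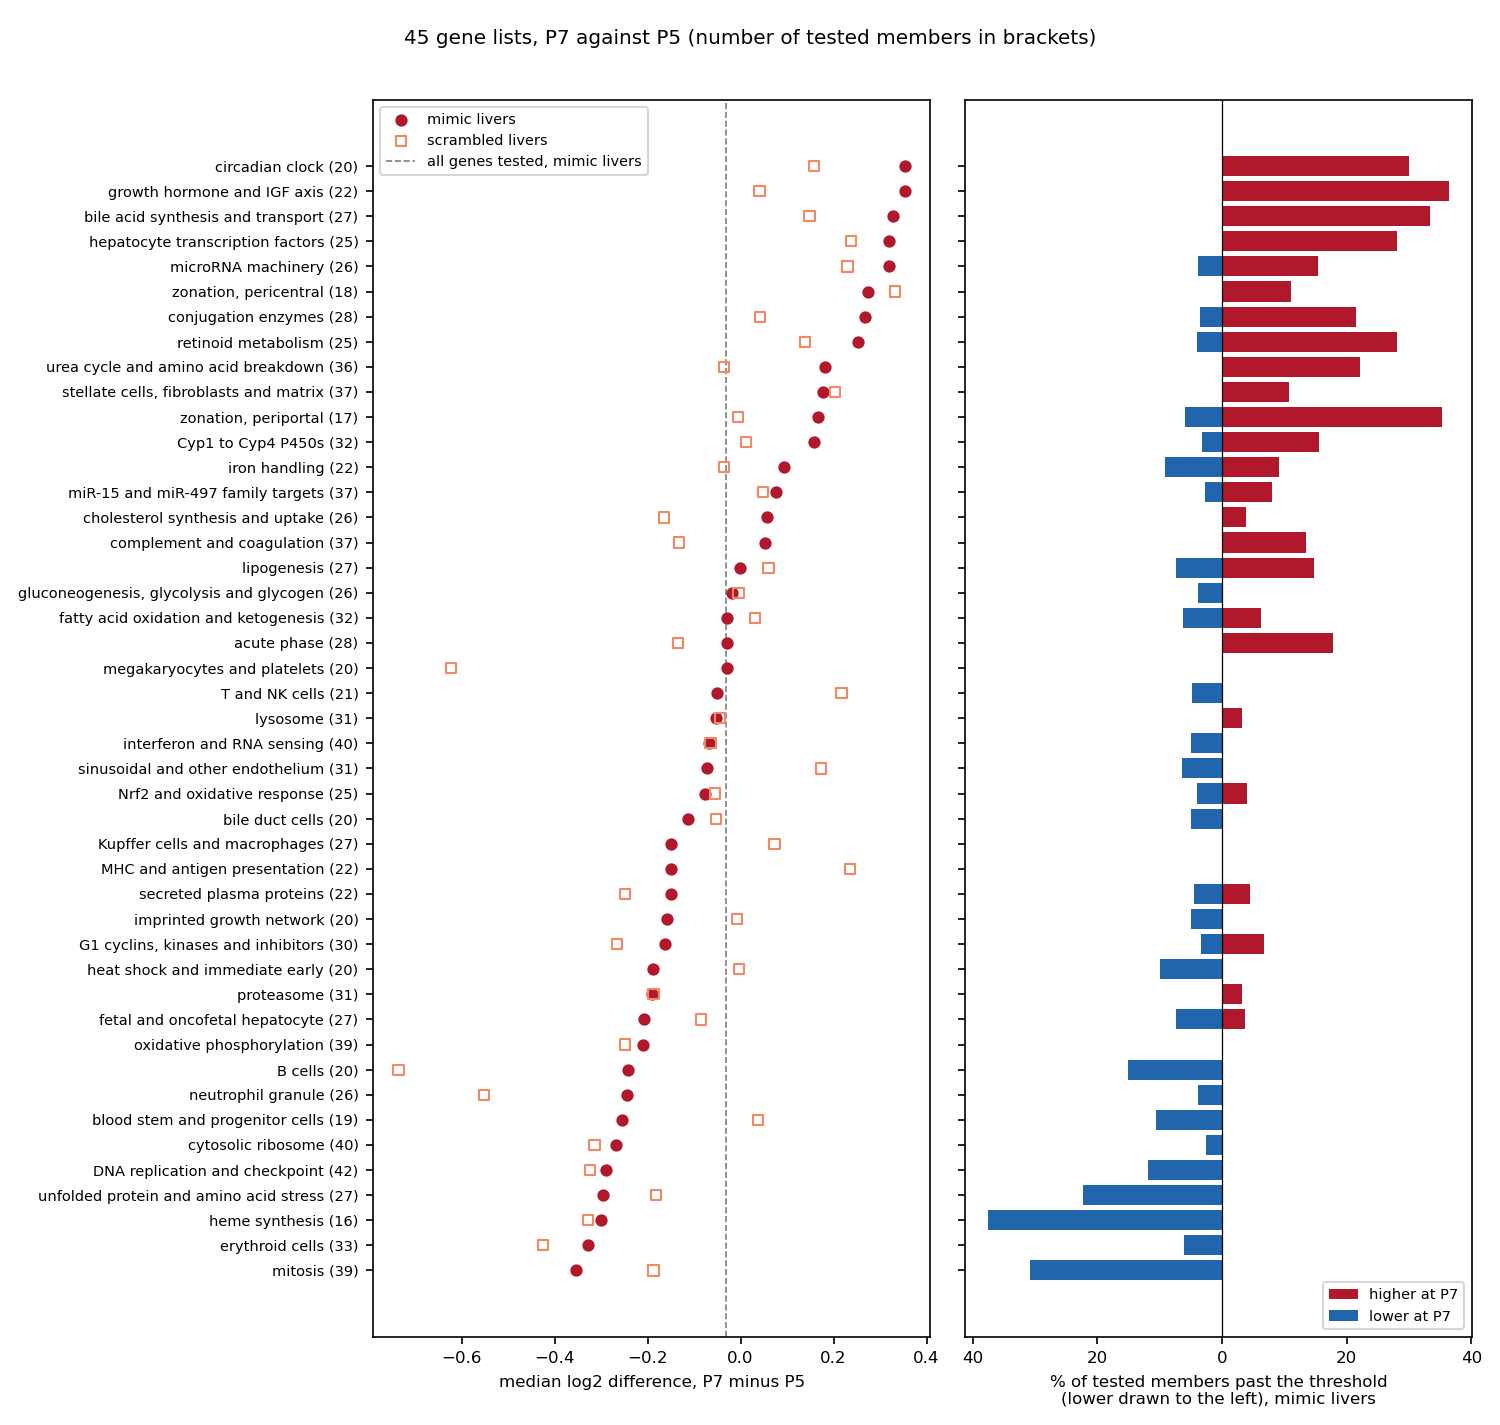
Left, the median log2 difference, P7 minus P5 (horizontal axis), of the tested members of 45 gene lists (vertical axis, number of tested members in brackets) in mimic livers and in scrambled livers, with the median of all tested genes in mimic livers dashed. Right, the percentage of members called higher or lower at P7 in mimic livers. The medians run from -0.35 for mitosis to 0.35 for the circadian clock, and the called mitosis members are all lower and the called clock members all higher.

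In the scrambled livers, which share no library with the mimic livers, 0 genes passed between P7 and P5 by limma (smallest adjusted p = 0.057), and 3265 (23.1%) had an unadjusted p under 0.05. The median within-group SD of log2 values there was 0.164 at P7 and 0.214 at P5, wider than in mimic livers. Of the 1416 genes called in mimic livers, 1327 (93.7%) had the same sign in scrambled livers, against 73.8% of all genes. The median difference of the 941 higher genes was 0.588 in mimic and 0.299 in scrambled livers, and that of the 475 lower genes was -0.520 in mimic and -0.303 in scrambled livers. The mimic medians come from genes picked for their size in those livers. Across all genes the 2 changes had a Pearson r of 0.443, or 0.362 with the length trend removed, given as a description since genes are not independent and libraries share the length trend. Without P5 scrambled replicate 1, 2342 genes passed in scrambled livers, and 547 of them were among the 1416, which is 38.6% of the mimic calls and 23.4% of the scrambled ones, with 546 in the same direction.

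**Figure D4:**
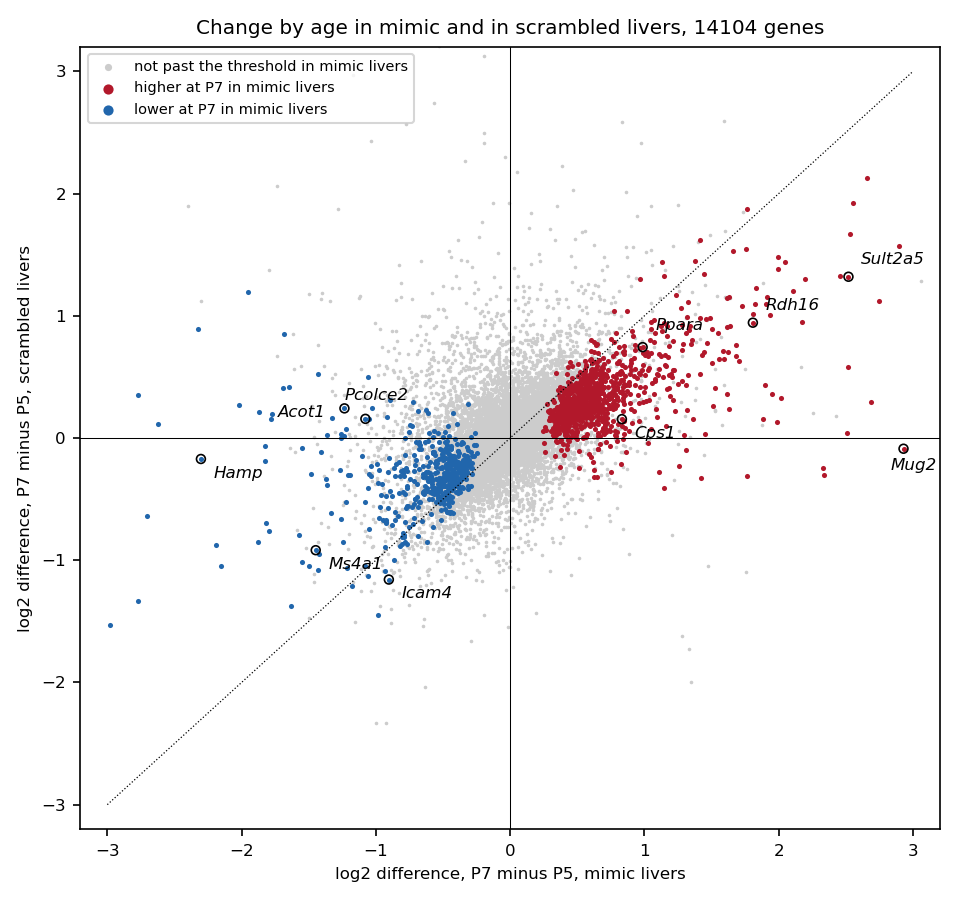
The log2 difference, P7 minus P5, of each of 14104 genes in mimic livers (horizontal axis) and in scrambled livers (vertical axis), with genes called in mimic livers in red and blue, the line of equal change dotted and 10 genes named. 15 genes lie outside the axes. Rdh16 lies at 1.81 in mimic and 0.94 in scrambled livers, Hamp at -2.30 and -0.17, and Icam4 at -0.90 and -1.16.

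Whether the change with age differed between the injections was tested directly, as the mimic change minus the scrambled change. By limma 0 of 14104 genes passed (smallest adjusted p = 0.465), and 864 (6.13%) had an unadjusted p under 0.05. So a gene called in mimic livers and not in scrambled livers is not shown to have changed differently. Of the 1416 genes 289 (20.4%) had an unadjusted p under 0.05 for the difference, in genes that had been picked for their change in mimic livers. The 4 genes of smallest p were Acot1, Grb7, Rcan1 and Gm5524 (limma, unadjusted p = 1.46e-04, 2.07e-04, 2.15e-04 and 2.43e-04). Acot1 had 49, 53 and 68 at P7 and 123, 145 and 133 at P5 in mimic livers, and 104, 114 and 97 in P7 scrambled livers, against 108, 62 and 103 in P5 scrambled livers. Grb7, an adaptor of receptor tyrosine kinases, had 581, 553 and 649 at P7 and 457, 464 and 452 at P5 in mimic livers, and 455, 499 and 483 in P7 scrambled livers, against 636, 588 and 478 in P5 scrambled livers. Rcan1, an inhibitor of calcineurin, had 255, 283 and 262 at P7 and 347, 310 and 337 at P5 in mimic livers, and 343, 338 and 310 in P7 scrambled livers, against 264, 260 and 292 in P5 scrambled livers. In Grb7 and Rcan1 the 2 changes had opposite signs, and in both genes the P7 and P5 mimic livers did not overlap. Genes with a mean under 0.2 over all libraries but P7 scrambled replicates 2 and 3 were taken as silent. The mimic libraries and P7 scrambled replicate 1 took part in that choice, so their low values are in part set by it. In these genes the 6 mimic libraries held at most 0.0178 scaled counts per kb, and P7 scrambled replicates 2 and 3 held 0.168 and 3.08. Without these 2 libraries the P7 scrambled arm held 1 library, so a count of calls then rests on the assumption that this liver varied like those of the other groups. Under that assumption 14 genes passed for the difference.

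**Figure D5:**
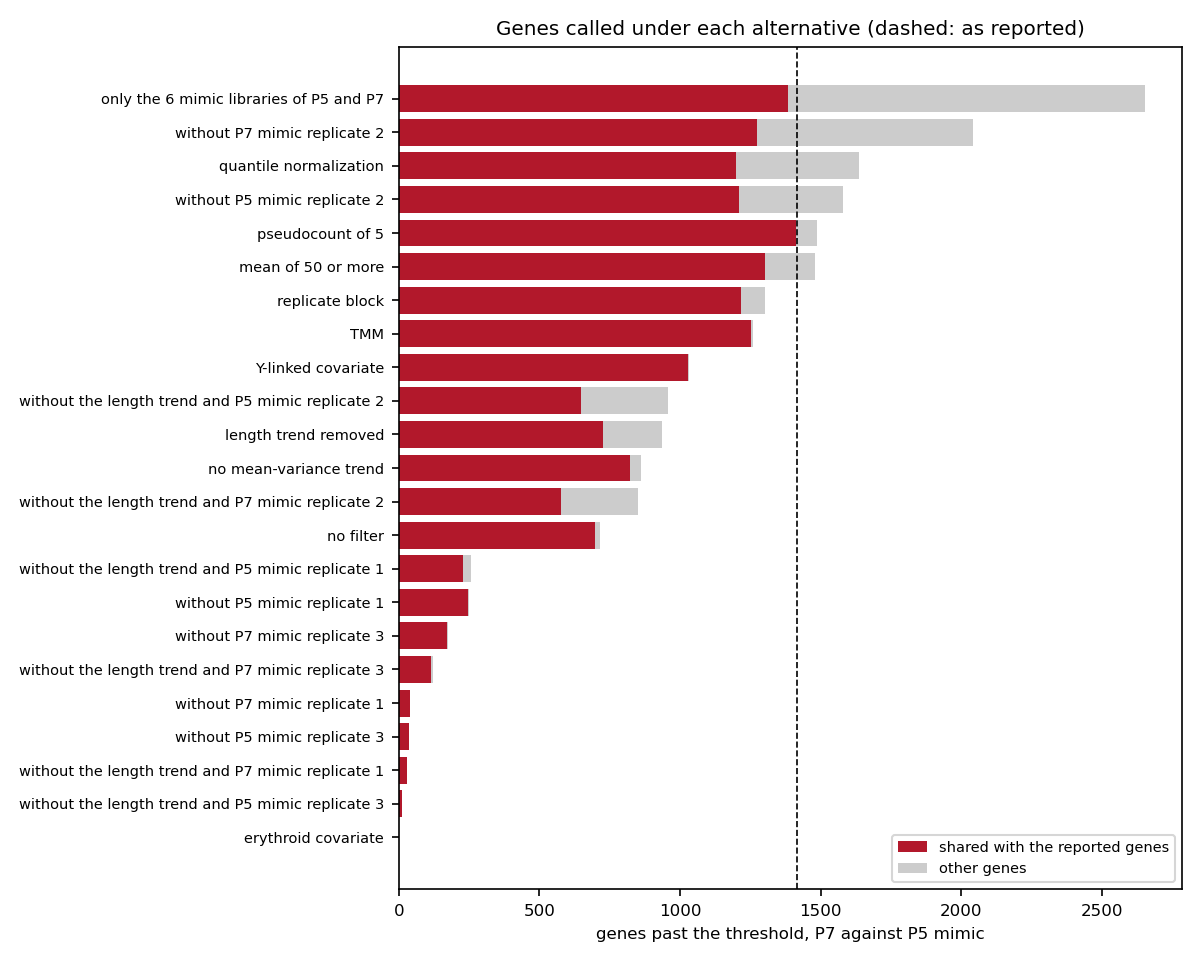
The number of genes called between P7 and P5 mimic livers (horizontal axis) under each of 23 alternative settings (vertical axis), split into those shared with the 1416 reported genes (red) and others (grey), with 1416 dashed. The bars run from 1 with the erythroid covariate to 2653 with only the 6 mimic libraries in the fit.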

How the data were processed

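The deposited table held, for 18 liver libraries, gene counts that the authors had scaled to a common library size and rounded to whole numbers (low values in each library step by a constant amount), a score named scaled counts in the text. Per the submitters' processing notes, the tools were DESeq2 1.26.0, featureCounts 1.6.5, Picard 2.21.7, STAR 2.6.1d and Trimmomatic 0.39, and the build was mm10. Since the values are not raw counts, log2(scaled count + 1) was fitted with limma 3.58.1 in R 4.3.3, with 6 group means over all 18 libraries and a mean-variance trend. Of 31165 genes, the 14104 whose mean over the 18 libraries reached 10 entered, and p-values were adjusted by Benjamini-Hochberg over them, with a threshold of 0.05. Fold changes on this scale understate the change of low genes. The fit was tested on simulated data.

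The group P7 mimic was compared with P5 mimic, P7 scrambled with P5 scrambled, and the 2 changes with each other. The members and the 48 gene lists were chosen with earlier results of these data known. Named genes are the 12 largest rises and 12 largest falls among called genes with a mean of 100 or more and groups that do not overlap (predicted genes are counted, not described), up to 4 called members per list, the 4 genes of smallest p for the difference between the changes, and a few fixed genes; other list members are given as further examples. Symbols of 5 list members did not match the table and were not analysed here. Some list members are counted but not reported here. Removing the length trend means subtracting, in each library, a smooth curve of the deviations on log transcript length. Alternatives covered the pseudocount, filter, scaling, libraries in the fit, covariates and each library left out. Depth limits the precision of low counts, and errors cover the spread between 3 livers per group.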

Additional observations from a re-analysis of the deposited data

How the results depend on the processing

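Of the 1416 calls (941 higher, 475 lower), the number stayed within 1.5 times with a pseudocount of 5, a mean of 50 or more, TMM (1260, of which 916 higher) and quantile normalization (1637, of which 989 higher), and the higher share moved from 66.5% to 72.7% with TMM and 60.4% with quantile normalization. Without a filter 715 genes passed (550 higher, 165 lower), with only the 6 mimic libraries 2653 (1642 higher, 1011 lower), without a mean-variance trend 862 (543 higher), with the length trend removed 936 (610 higher) and with the erythroid covariate 1 (1 higher, 0 lower). With the level of the Y-linked genes as a covariate, 303 genes were lower. Leaving out each mimic library gave 35 to 2044 calls (29 to 1232 higher, 6 to 812 lower), and with the length trend removed 13 to 956 (12 to 547 higher, 1 to 409 lower). The median SE of a log2 difference was 0.150, against 0.172 without P7 mimic replicate 1 and 0.170 without P5 mimic replicate 3. In scrambled livers, 9 genes passed with a pseudocount of 5 (4 higher, 5 lower), 113 with quantile normalization (73 higher, 40 lower), 3 with only the 12 libraries of P5 and P7 (3 lower) and 17 without P7 scrambled replicates 2 and 3 (13 higher, 4 lower), a fit in which the P7 scrambled arm is 1 library assumed to vary like the other groups. Leaving out each scrambled library gave 0 to 2342 (0 to 1239 higher, 0 to 1103 lower), and with the length trend removed 0 to 820 (0 to 370 higher, 0 to 450 lower). For the difference between the changes, 14 genes passed without P7 scrambled replicates 2 and 3 (14 lower, with the same single P7 scrambled library), and leaving out each library gave 0 to 5 (0 to 1 higher, 0 to 5 lower). The sign of a named gene's difference turned under some alternatives. Igf2 had -0.36 with quantile normalization (adjusted p = 0.0268, limma), -0.11 with the length trend removed and -0.0056 with the Y-linked covariate. Sqle had -0.047 with quantile normalization and -0.056 with the length trend removed. Over the fits without 1 library, with and without the length trend, the log2 difference ran from -0.17 to 0.14 for Sqle, from -0.23 to 0.071 for Igf2, from -1.14 to 0.17 for Ttn, from -0.50 to 4.11 for Eif2s3y, from -0.088 to 0.38 for Acaca and from -0.27 to 0.031 for Alb. Where a count moved, the cause was not tested. The Y-linked covariate, the length trend with a library left out and the scrambled alternatives were added after seeing the data.

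With the replicate number as a block, 1303 genes passed in mimic livers (886 higher, 417 lower), 0 in scrambled livers and 0 for the difference. The replicate numbers did not pair the samples, since same-numbered mimic livers deviated together with correlations of -0.218, -0.096 and 0.143 and did not all correlate best with their own number. The block moved no count of calls by over 1.5 times.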
